A study of Mus musculus with 9 samples.

Results

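The collagen gene family was followed in mouse liver with and without Notch1 and in angiosarcoma cell lines. Members were the genes whose symbol reads Col, digits, a, digits, each represented by its brightest probe set. This gave 44 of the 19938 genes tested, from 46 probe sets, because Col6a5 and Col6a6 had 2 probe sets each. By role, 11 were fibrillar collagens, 6 were the type IV collagens of basement membrane and 27 were other collagens. The symbol alone made a gene a member, but the family was chosen with earlier results of these data known.

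The series holds 9 arrays, 3 per group. All liver donors were C57Bl/6 mice with loxP-flanked Notch1 that received 300 µg poly(I:C), an interferon-inducing imitation of viral RNA, at an age of 4 weeks and on days 0, 3 and 6. The WT liver group carried no Cre, whereas the KO liver group also carried MxCre, a Cre recombinase under an interferon-responsive promoter that is active in many cell types. Cre expression and the loss of Notch1 therefore cannot be told apart. The AS cell line group consisted of 3 separately derived angiosarcoma lines, grown in long-term culture from hepatic endothelial cells of KO mice with visible tumours, and labelled as Notch1 knockout. The sources used here do not give the age at tissue collection. The extraction protocol given for every sample names "PHH", which the labels do not explain.

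Collagens are secreted or membrane proteins whose chains wind into a rod-like helix. Fibrillar types (I, III and V in most soft tissue) assemble into cables, type IV forms the sheet of basement membranes, and FACIT collagens (fibril-associated, with interrupted helices) coat the cables. In liver, stellate cells and portal fibroblasts are the best-known source of fibrillar collagen, sinusoidal endothelial and stellate cells contribute type IV chains to the perisinusoidal space, and hepatocytes make type XVIII.

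All levels below are the deposited log2 values, made per probe set by robust multi-array averaging (RMA), so a difference of 1 is a doubling of signal. Medians per array ran from 6.53 to 6.63. Notch1 itself read 11.69, 11.02 and 11.71 in WT livers, 7.84, 8.75 and 8.52 in KO livers and 8.75, 8.61 and 7.83 in the lines. Every KO liver and every line lay below every WT liver. The KO difference was -3.10 ± 0.302 (log2, SE), with an adjusted p of 0.0995 (limma) and a p of 0.1 by an exact 2-sided permutation test, the smallest that 3 against 3 arrays allow.

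The lines did not carry the marker pattern of their labelled origin. The mean of 15 endothelial markers was 11.85 to 12.26 in the 6 livers and 6.17 to 6.43 in the lines. All 15 were called lower in the lines against either liver group, beside 10.1% (KO liver) and 11.1% (WT liver) of all genes. Cdh5, the endothelial cadherin, read 12.72 to 13 in livers and 5.45 to 5.66 in lines, and Pecam1 read 11.41 to 11.92 in livers and 5.39 to 5.81 in lines. The mean of 8 mesothelial markers was higher in the lines, at 9.03 to 9.93 against 6.59 to 7.59 in livers. Against KO liver 5 of these were called higher and against WT liver 4, while Lrrn4 and Gpm6a had lower means than in either. The mean of 7 cholangiocyte markers was also higher, at 7.84 to 8.17 against 5.79 to 6.42. Krt7, Krt19 and Sox9 were called higher against either liver group and the other 4 were not called. Epcam, 1 of those 4, read 5.56 to 6.02 in lines and 5.33 to 6.77 in livers. Of all genes, 11.4% (KO liver) and 17.6% (WT liver) were called higher. The mean of 11 stellate cell markers was 8.37 to 9.25 in livers and 6.6 to 6.97 in lines. The livers also differed among themselves: the mean of 15 hepatocyte markers was 11.38, 12.44 and 12.33 in WT livers, 10.34, 12.45 and 9.27 in KO livers, and 8.01, 9.08 and 7.74 in the lines. The part of these cell-type differences in the collagen values was not tested, and in bulk RNA fewer cells of a type and less RNA per cell cannot be told apart.

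Values spread unequally over the family. Over the 9 arrays, 18 of 44 spanned less than 0.5 (40.9%, against 28.7% of all genes), and 11 spanned 1 or more (25%, against 46.0% of all genes). Those 11 were Col14a1 with a span of 4.5, Col18a1 with 2.82, Col12a1 with 2.75, Col4a2 with 1.91, Col4a1 with 1.81, Col3a1 with 1.56, Col13a1 with 1.46, Col6a1 with 1.37, Col1a2 and Col6a3 with 1.17 each, and Col4a5 with 1.07. The mean value of 23 collagens lay at or below 7.19, the median over genes. Among these dim collagens the share that spanned less than 0.5 was 52.2%, against 52.5% of equally dim genes, and among the 21 brighter collagens it was 28.6%, against 4.86% of brighter genes. The second pair of shares was not matched in level. The 6 flat brighter collagens (Col2a1, Col7a1, Col9a2, Col9a3, Col11a2 and Col16a1) had means of 7.27 to 7.58, at percentiles 51.0 to 55.2 of all genes. The table holds no detection call, so for the dim probe sets and those 6 a flat profile may be background as well as a steady level. A low value is not an absence.

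**Figure D1:**
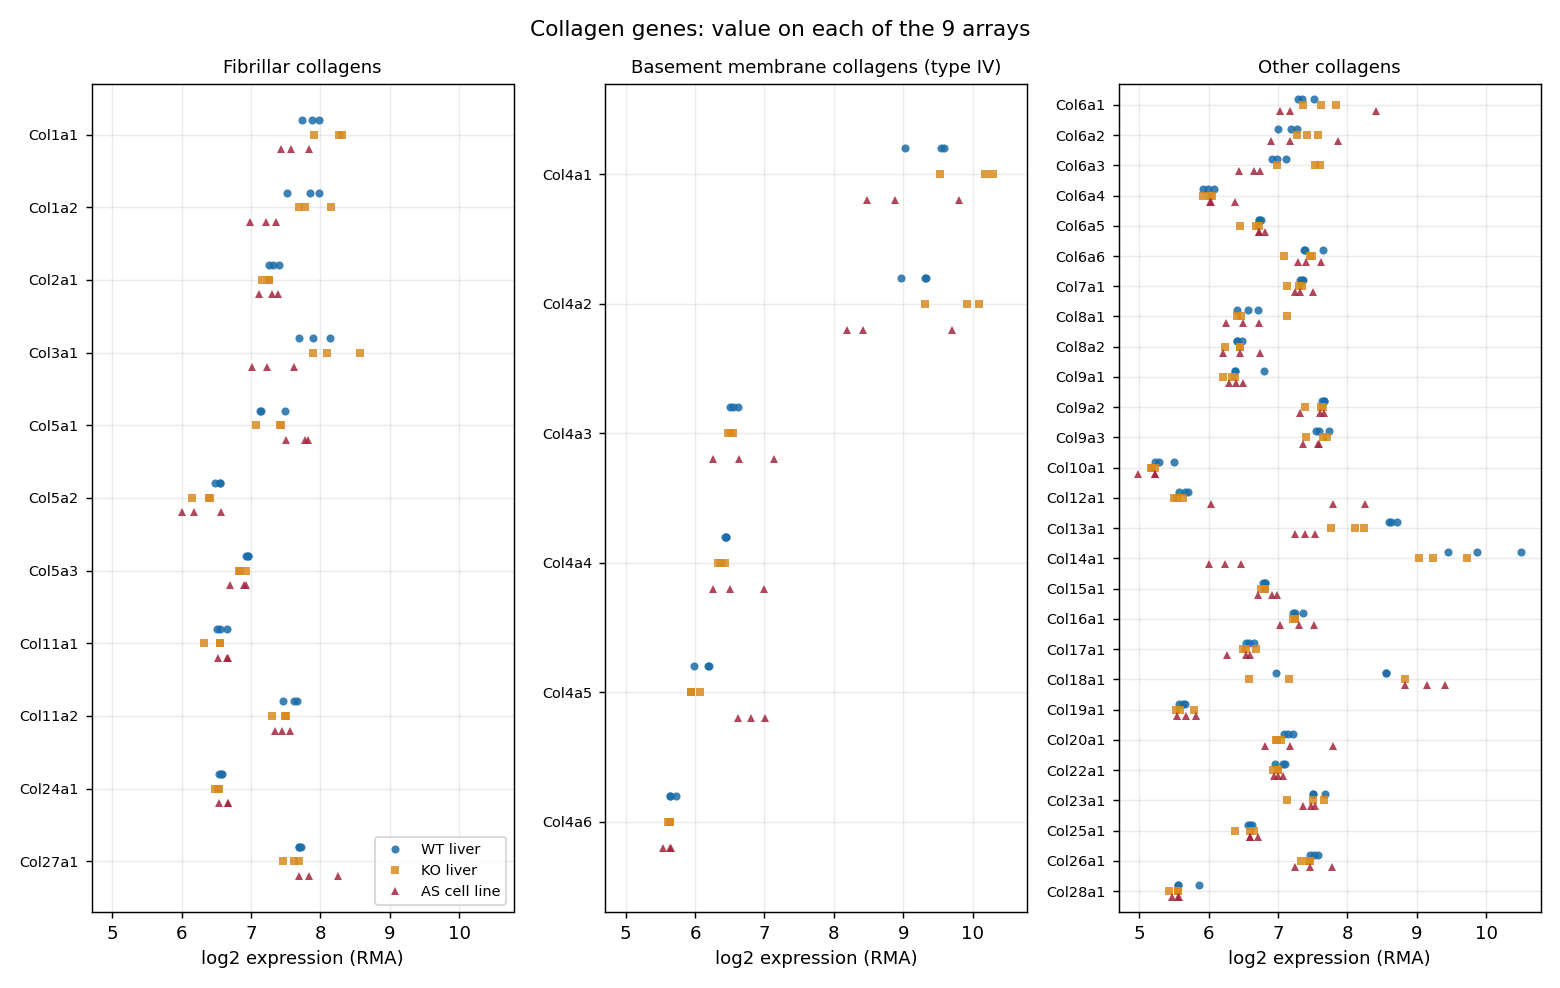
Value of each of the 44 collagen genes on each of the 9 arrays (horizontal axis, log2 RMA expression), with fibrillar, type IV and other collagens in separate panels; circles are WT livers, squares KO livers and triangles AS cell lines. For 18 of the 44 genes the 9 points span less than 0.5, whereas Col14a1 runs from 6.00 in a line to 10.51 in a WT liver, and Col12a1 and Col18a1 also spread widely.

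In KO against WT liver, no collagen was called higher or lower at an adjusted p under 0.05 in limma, where the share of all genes called was 0% in either direction. The smallest adjusted p among collagens was 0.109, for Col13a1. At an unadjusted p under 0.05, 1 collagen (Col4a2) was higher and 1 (Col13a1) lower, against 17.3% and 5.17% of all genes. No collagen had every KO liver above every WT liver, against 19.2% of all genes, and 5 had every KO liver below every WT liver, against 11.1%. These 5 were Col13a1, Col5a2, Col20a1, Col10a1 and Col5a3. The median difference of the 44 was -0.06, against -0.00113 over all genes. In size, 39 differed by less than 0.5 (88.6%, near the 87.4% of all genes). With the 75th percentile of each array as the common scale, the medians were -0.22 and -0.16, so both moved together. The counts rested on 1 array: without KO liver replicate 2, Col4a2 (0.80, adjusted p 0.0423) and Col6a3 (0.57, adjusted p 0.0302) were called higher and Col13a1 (-0.71, adjusted p 0.0387) lower, among 1671 genes called higher and 278 lower.

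In the lines against KO liver, 1 collagen rose (Col4a5) and 4 fell (Col14a1, Col13a1, Col6a3 and Col1a2). Over all genes, 11.4% were called higher and 10.1% lower in this comparison. Against WT liver the same test called Col4a5 higher and Col14a1, Col13a1 and Col1a2 lower, where 17.6% of all genes were called higher and 11.1% lower. Both comparisons use the same 3 lines, so they are not separate evidence. The called share of the family, in either direction, was 11.4% against KO liver and 9.09% against WT liver, beside 21.4% and 28.7% of all genes. Of the 44, 33 differed by less than 0.5 from KO liver (75%, against 64.5% of all genes) and 37 from WT liver (84.1%, against 60.1%). All lines lay above all KO livers for 4 collagens and below them for 6 (24.1% and 16.7% of all genes), and above all WT livers for 4 and below them for 6 (28.3% and 19.5% of all genes). By class, 1 of 6 type IV collagens rose and none fell in either comparison, and 1 of 11 fibrillar collagens fell and none rose. Of the 27 other collagens none rose, and 3 fell against KO liver and 2 against WT liver.

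**Figure D2:**
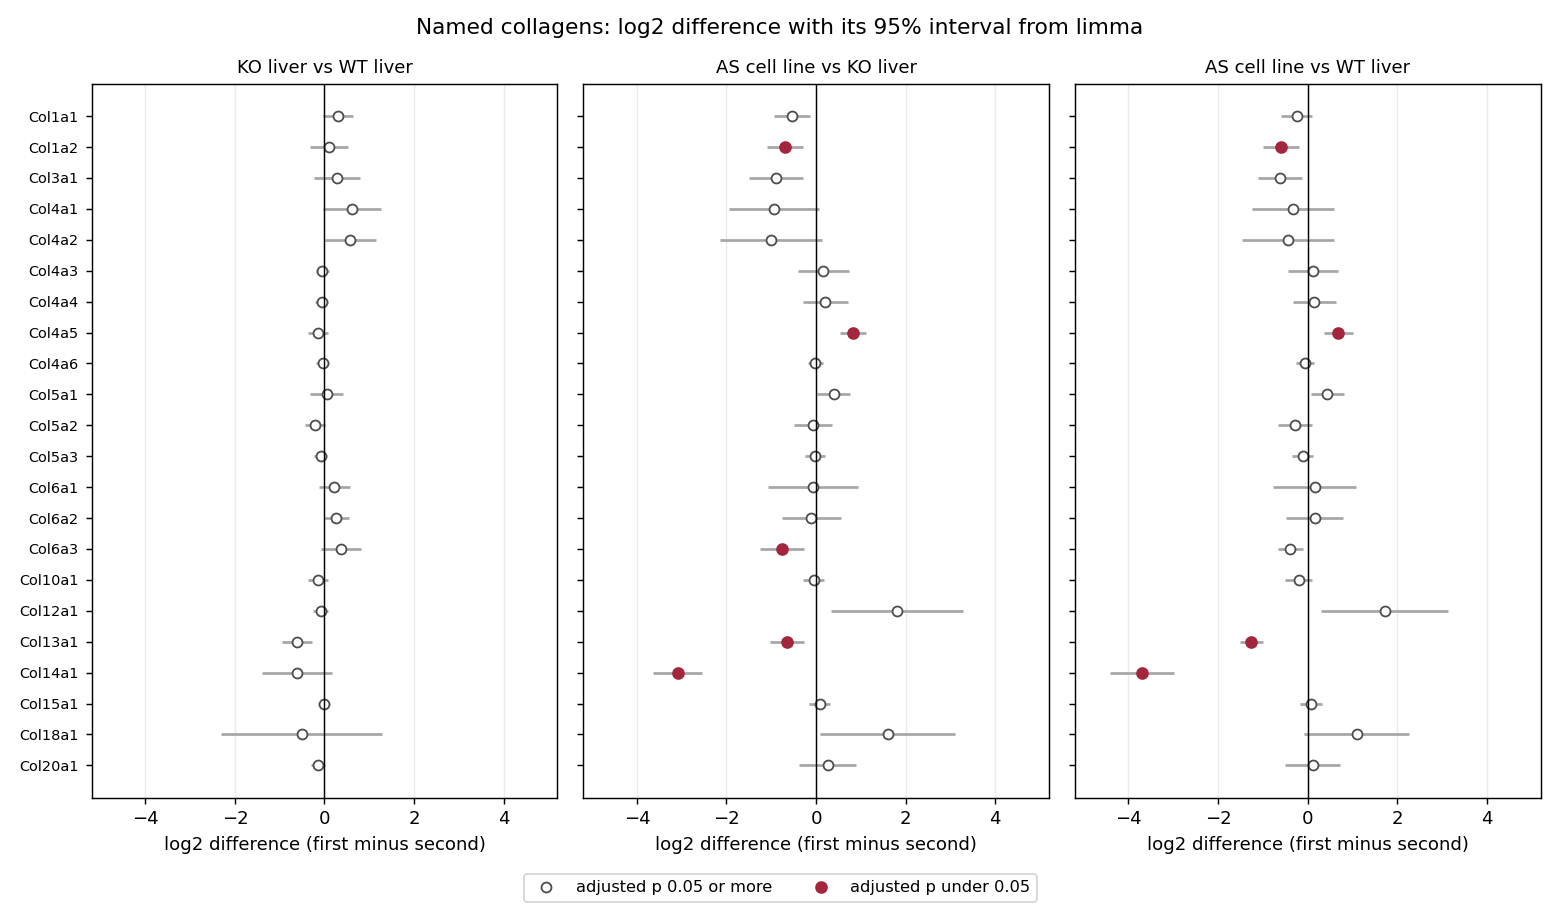
Log2 difference (horizontal axis, first group minus second, point) with its 95% interval (line, limma) for each collagen described by name, in the 3 comparisons; filled points have an adjusted p under 0.05. The KO against WT panel has no filled point, and Col14a1, at -3.09 and -3.70, stands farthest to the left in the panels for the lines.

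Among fibrillar collagens, Col1a2 was the only one called in the lines. Col1a2, the second chain of type I collagen, read 7.85, 7.98 and 7.52 in WT livers, 7.78, 7.70 and 8.15 in KO livers and 6.99, 7.21 and 7.36 in the lines. Every line lay below every liver, and the WT and KO livers overlapped. Col1a2 fell by 0.69 ± 0.162 (log2, SE) against KO liver (adjusted p 0.0365) and by 0.60 ± 0.161 against WT liver (adjusted p 0.0409). Neither call was stable: against KO liver it was lost when any 1 array was left out (adjusted p 0.0516 to 0.0963), and against WT liver when any array other than WT liver replicate 3 was (0.0516 to 0.131).

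Col3a1, the chain of type III collagen, read 8.15, 7.90 and 7.70 in WT livers, 8.10, 7.89 and 8.57 in KO livers and 7.01, 7.24 and 7.62 in the lines. The lines again lay below every liver, with WT liver replicate 3 and line 3 close together. The differences, -0.90 ± 0.239 from KO liver (adjusted p 0.052) and -0.62 ± 0.197 from WT liver (adjusted p 0.066), missed the threshold. The first was called with the replicate number as a block (0.0277), with all 9 arrays in one fit (0.0197), with dim genes left out (0.0328) and without line 3 (-1.06, 0.0484), and the second without line 3 (-0.79, 0.0325). Col1a1, the major chain of type I collagen, read 7.98, 7.88 and 7.73 in WT livers, 8.31, 7.91 and 8.27 in KO livers and 7.43, 7.58 and 7.83 in the lines. Here line 3 reached into the range of the WT livers, and only the KO livers were clear of the lines (-0.55 ± 0.159, adjusted p 0.0679; against WT liver -0.25 ± 0.136, adjusted p 0.239). Without KO liver replicate 2 the first difference was -0.67 and was called (adjusted p 0.0451). Between KO and WT liver the 3 genes differed by 0.30 ± 0.134 (Col1a1), 0.09 ± 0.172 (Col1a2) and 0.27 ± 0.209 (Col3a1), with adjusted p of 0.259, 0.751 and 0.453. The 75th percentile scale turned the sign for Col1a2.

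Of the type V chains, which help set the diameter of type I fibrils, Col5a1 had another order. Col5a1 read 7.15, 7.48 and 7.14 in WT livers, 7.43, 7.07 and 7.43 in KO livers and 7.50, 7.78 and 7.83 in the lines. Each line lay above every liver, line 1 only just, but the differences of 0.39 ± 0.147 from KO liver and 0.44 ± 0.146 from WT liver had adjusted p of 0.129 and 0.0739. The second was called without line 1 (0.54, adjusted p 0.0484). Col5a2, the partner chain, read 6.48, 6.56 and 6.55 in WT livers, 6.40, 6.15 and 6.41 in KO livers and 6.01, 6.19 and 6.57 in the lines. Its KO livers were all below its WT livers, by -0.21 ± 0.090 on average (adjusted p 0.237). The lines were called lower than WT liver when line 3 was left out (-0.43, adjusted p 0.0357). Of the other fibrillar members, the cartilage chain Col2a1 stayed between 7.11 and 7.41 on all 9 arrays and Col5a3 between 6.70 and 6.96.

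The type IV genes lie in head-to-head pairs that are transcribed in opposite directions. Col4a1 and Col4a2 encode the chains of the ubiquitous type IV network, and Col4a5 and Col4a6 encode chains of more restricted networks in kidney, epithelia and smooth muscle. Start windows are shown for these 2 pairs. For the remaining pair, Col4a3 and Col4a4, there was no window of Col4a3. Any part of the windows in the expression values was not tested. The windows come from RefSeq on GRCm38.p6, which supplied a window (250 bases before to 50 after a start) for 35 of the 44 collagens. Each runs 5′ to 3′ on the gene's strand. Capitals in the first pair mark the 78 bases that both windows hold, at chr8:11312777-11312854. The starts on which these 2 windows are set are 21 bases apart. The annotated genes overlap by 85 bases, with Col4a1 annotated to begin at 11312889 and its window set on 11312826.
Col4a1 (chr8:11312777-11313076, minus strand): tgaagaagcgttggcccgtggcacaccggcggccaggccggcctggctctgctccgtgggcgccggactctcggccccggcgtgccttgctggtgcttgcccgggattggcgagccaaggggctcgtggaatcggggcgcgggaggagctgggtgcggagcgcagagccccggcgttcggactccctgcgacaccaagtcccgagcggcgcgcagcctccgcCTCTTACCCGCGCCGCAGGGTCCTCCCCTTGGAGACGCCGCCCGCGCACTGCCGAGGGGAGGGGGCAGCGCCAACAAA
Col4a2 (chr8:11312555-11312854, plus strand): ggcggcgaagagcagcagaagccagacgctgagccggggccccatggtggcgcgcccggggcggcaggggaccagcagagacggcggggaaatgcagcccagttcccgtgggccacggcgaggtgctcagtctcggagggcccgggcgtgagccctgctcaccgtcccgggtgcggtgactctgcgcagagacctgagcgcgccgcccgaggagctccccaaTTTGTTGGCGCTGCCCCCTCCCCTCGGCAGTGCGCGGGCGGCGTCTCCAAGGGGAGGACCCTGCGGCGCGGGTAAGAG
The windows of the second pair share no base, with starts 1343 bases apart, and capitals there mark CCAAT or GGGCGG read on either strand.
Col4a6 (chrX:141474027-141474326, minus strand): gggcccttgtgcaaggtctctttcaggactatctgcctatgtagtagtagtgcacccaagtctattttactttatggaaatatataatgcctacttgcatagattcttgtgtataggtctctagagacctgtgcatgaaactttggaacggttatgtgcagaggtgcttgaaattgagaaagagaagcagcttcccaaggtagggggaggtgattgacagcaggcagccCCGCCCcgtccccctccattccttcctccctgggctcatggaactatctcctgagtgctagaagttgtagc
Col4a5 (chrX:141475169-141475468, plus strand): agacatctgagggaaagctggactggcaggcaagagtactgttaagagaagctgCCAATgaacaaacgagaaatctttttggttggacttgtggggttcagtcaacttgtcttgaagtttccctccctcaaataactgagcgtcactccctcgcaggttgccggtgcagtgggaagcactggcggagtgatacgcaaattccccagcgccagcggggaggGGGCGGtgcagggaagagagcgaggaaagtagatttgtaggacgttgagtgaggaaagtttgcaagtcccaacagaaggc
The Col4a1 and Col4a2 windows were 74.0% and 73.7% G or C, and those of Col4a5 and Col4a6 52.7% and 48.3%. On either strand, GGGCGG occurred in 23 of the 38 collagen windows (60.5%) and in 35.7% of the 32851 windows of all genes, CCAAT in 13 (34.2%, against 37.4%) and TATAAA in 5 (13.2%, against 13.6%). These letter matches are descriptions of the windows and not binding sites.

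Col4a1 read 9.02, 9.58 and 9.55 in WT livers, 10.17, 9.53 and 10.29 in KO livers and 8.48, 9.81 and 8.88 in the lines. Col4a2 read 8.96, 9.32 and 9.32 in WT livers, 9.92, 9.32 and 10.09 in KO livers and 8.18, 9.70 and 8.42 in the lines. In both genes the 3 highest arrays were KO liver replicate 3, KO liver replicate 1 and line 2, in that order, the 2 lowest were lines 1 and 3, and KO liver replicate 2 lay among the WT livers. The KO differences of 0.61 ± 0.257 (95% interval -0.02 to 1.25) and 0.57 ± 0.227 (0.01 to 1.14) had adjusted p of 0.233 and 0.217. KO livers 1 and 3 were also the 2 livers with the lowest hepatocyte marker means and the highest means of 9 proliferation genes (9.37 and 8.89, against 8.0 in KO liver replicate 2 and 7.04 to 7.24 in WT livers). The part of these in the type IV values was not tested.

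Against KO liver the lines differed by -0.94 ± 0.399 for Col4a1 (adjusted p 0.17) and -1.01 ± 0.455 for Col4a2 (adjusted p 0.193). Line 2 set the spread: without it the differences were -1.32 (adjusted p 0.0464) and -1.47 (adjusted p 0.03). Against WT liver they were -0.33 ± 0.370 and -0.43 ± 0.412, with adjusted p of 0.561 and 0.486. Without line 2 these were -0.70 (adjusted p 0.0943) and -0.90 (adjusted p 0.0188), so that Col4a2 was then called lower. Without line 1 they were -0.04 and -0.14.

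Col4a5 was the collagen that rose in the lines. It read 6.20, 6.19 and 5.98 in WT livers, 6.08, 5.94 and 5.94 in KO livers and 6.80, 6.63 and 7.0 in the lines. All 3 lines were above all 6 livers, although the values were dim throughout. The rise was 0.83 ± 0.117 against KO liver (1.77-fold on the RMA scale, adjusted p 0.00755) and 0.69 ± 0.130 against WT liver (1.61-fold, adjusted p 0.013). Without WT liver replicate 3 the second call was lost (0.62, adjusted p 0.053). Its neighbour Col4a6 stayed between 5.53 and 5.73 on all 9 arrays, with a difference of -0.02 from KO liver (95% interval -0.19 to 0.15).

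Col4a3 and Col4a4, the partners of Col4a5 in the kidney-type network, were flat in livers, at 6.48 to 6.62 and 6.34 to 6.44. In lines 1, 2 and 3 they read 6.25, 7.14 and 6.64, and 6.26, 7.0 and 6.50. Line 2 was highest and line 1 lowest in both, and the lines overlapped the livers (adjusted p 0.530 to 0.743 against either liver group).

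Col14a1, a FACIT collagen found on the surface of type I fibrils, made the largest change of the family. It read 9.45, 10.51 and 9.87 in WT livers, 9.24, 9.03 and 9.72 in KO livers and 6.00, 6.24 and 6.47 in the lines. Every line lay far below every liver, and the liver groups overlapped. Col14a1 fell by 3.09 ± 0.219 against KO liver (8.54-fold lower, adjusted p 0.000797) and by 3.70 ± 0.290 against WT liver (13-fold lower, adjusted p 0.000604). The KO difference was -0.61 ± 0.315 (adjusted p 0.308), and -0.33 without WT liver replicate 2, the highest array. Decorin and lumican, small proteoglycans that bind the same fibrils, were called lower in the same 2 comparisons. Both belong to a list of 11 fibroblast and myofibroblast markers. Of that list, 4 were called lower, 1 (Fbln2) higher and 6 not called in each comparison. Of all genes, 10.1% (KO liver) and 11.1% (WT liver) were called lower, and 11.4% and 17.6% higher. Of 11 stellate cell markers, 8 were called lower in each comparison. They were not the same 8: Hand2 was called only against KO liver and Ngfr only against WT liver.

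Col12a1, the FACIT collagen closest in build to Col14a1, had the opposite order. It read 5.66, 5.70 and 5.57 in WT livers, 5.63, 5.5 and 5.54 in KO livers and 6.04, 8.25 and 7.80 in the lines. Lines 2 and 3 were far above the livers and line 1 only just above them. The differences of 1.81 ± 0.586 from KO liver (adjusted p 0.0905) and 1.72 ± 0.572 from WT liver (adjusted p 0.0757) missed the threshold, and without line 1 they were 2.47 (adjusted p 0.00264) and 2.38 (adjusted p 0.00133). Col20a1, a further FACIT collagen, read 7.21, 7.09 and 7.14 in WT livers and 6.99, 6.97 and 7.05 in KO livers, all lower (-0.14, adjusted p 0.245), and 6.82, 7.79 and 7.17 in the lines.

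Col13a1, a transmembrane collagen of cell-matrix contacts, was a gene whose value stepped down from group to group. It read 8.71, 8.60 and 8.63 in WT livers, 7.77, 8.25 and 8.11 in KO livers and 7.25, 7.54 and 7.39 in the lines. No group overlapped another. The KO difference of -0.61 ± 0.133 (95% interval -0.94 to -0.28) had an unadjusted p of 0.00448 and an adjusted p of 0.109. Col13a1 fell by 0.65 ± 0.153 in the lines against KO liver (adjusted p 0.0371) and by 1.26 ± 0.103 against WT liver (2.39-fold lower, adjusted p 0.000714). The first of these calls held without KO liver replicate 1 and was lost without any other single array (adjusted p 0.0568 to 0.126).

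**Figure D3:**
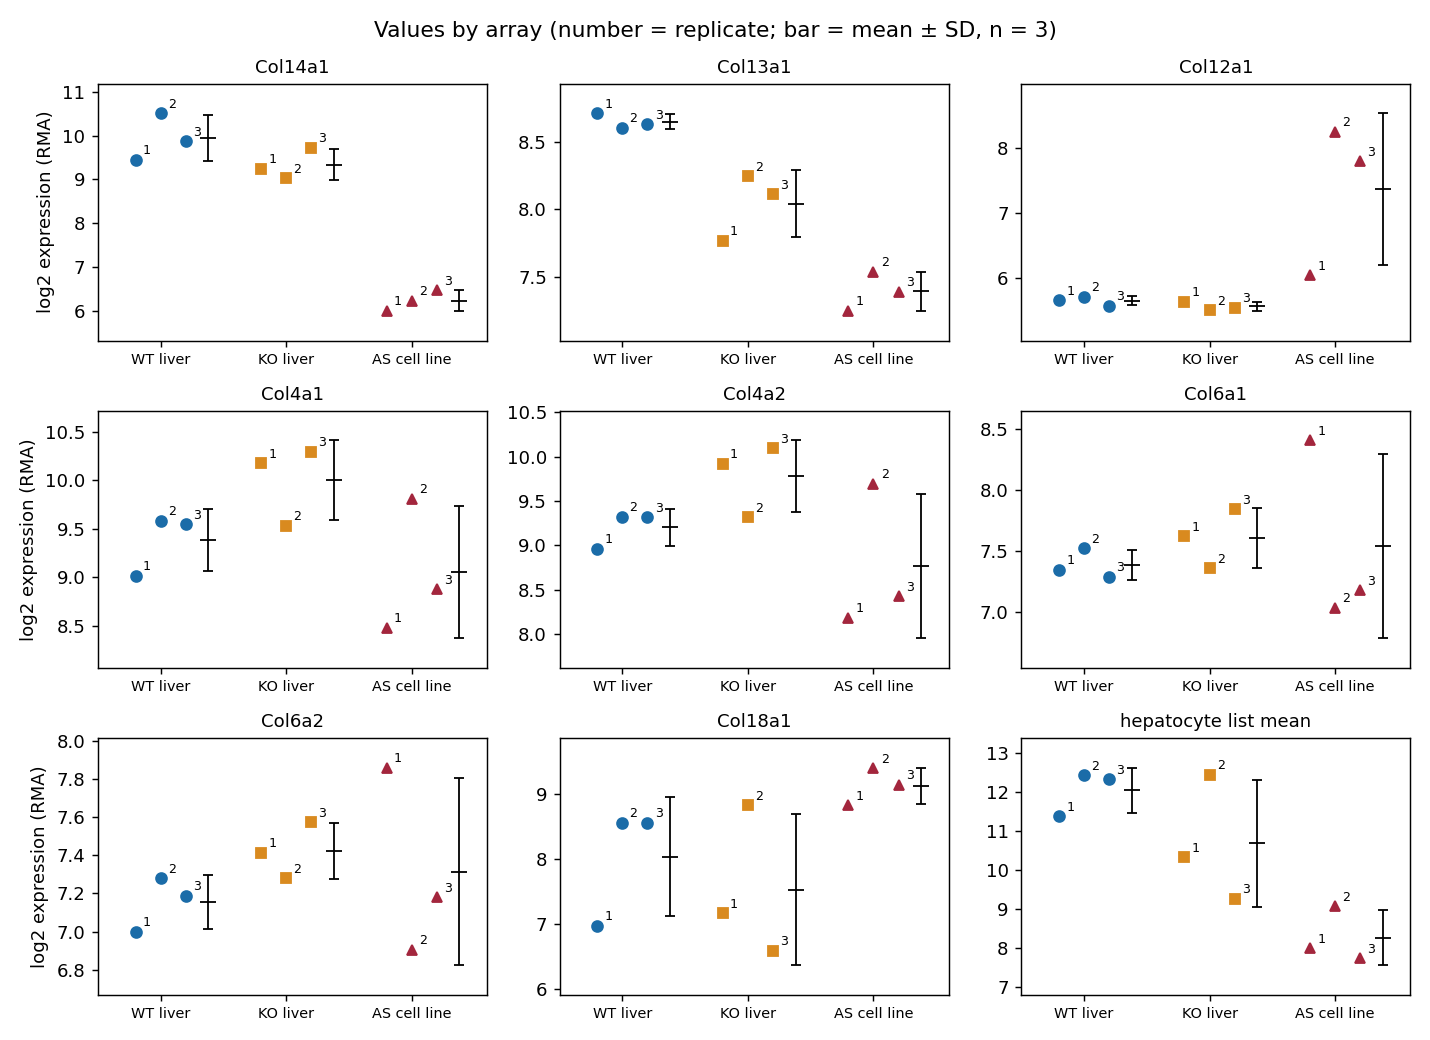
Values by array (vertical axis, log2 RMA expression; numbers are replicates, bars the mean ± SD of 3) for 8 collagens and the mean of the hepatocyte marker list. Col4a1 and Col4a2 share their array order, line 1 is high for Col6a1 and Col6a2 and low for Col12a1, and KO livers 1 and 3 are low for Col18a1 and for the hepatocyte mean.

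Col18a1 encodes the multiplexin whose C-terminal fragment is endostatin. It read 6.97, 8.56 and 8.56 in WT livers, 7.17, 8.83 and 6.58 in KO livers and 8.83, 9.40 and 9.15 in the lines. Among livers the values lay in 2 sets that cut across genotype, with WT liver replicate 1 and KO livers 1 and 3 at 6.58 to 7.17 and the other 3 at 8.56 to 8.83. Those 3 low livers were also the 3 with the lowest hepatocyte marker means (11.38, 10.34 and 9.27, against 12.33 to 12.45). The lines, whose hepatocyte means were 7.74 to 9.08, had the highest values, so low values went with low means of this list within livers only. In the lines that mean averaged a split list. Against KO liver 13 of 15 markers were lower and 2 higher, with 4 called lower (10.1% of all genes). Against WT liver 14 were lower and 1 higher, with 9 called lower (11.1% of all genes). Hnf4a read 10.95, 11.10 and 10.35 in lines and 7.16 to 10.53 in livers. Cyp2e1 read 5.23 to 5.58 in lines and 11.03 to 13.56 in livers. The part of hepatocyte content in the Col18a1 values was not tested. The KO difference was -0.51 ± 0.723 (adjusted p 0.681), with an interval from -2.30 to 1.29, and -0.04 without KO liver replicate 3.

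Against KO liver the lines were higher by 1.60 ± 0.599 (adjusted p 0.128) and against WT liver by 1.09 ± 0.470 (adjusted p 0.145), or 0.56 without WT liver replicate 1. The lowest line and KO liver replicate 2 both read 8.83. Without that liver the difference from KO liver was 2.25 (adjusted p 0.00994). Col15a1, the other multiplexin and a basement membrane component, stayed between 6.71 and 6.99 on all 9 arrays.

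Type VI collagen forms beaded filaments around cells from the chains of Col6a1, Col6a2 and Col6a3. Col6a3 read 6.98, 7.11 and 6.92 in WT livers, 7.54, 6.98 and 7.61 in KO livers and 6.44, 6.66 and 6.74 in the lines. Every line lay below every liver, and KO livers 1 and 3 lay above the rest, as for Col4a1. Col6a3 fell by 0.76 ± 0.196 against KO liver (adjusted p 0.0471), whereas the -0.39 ± 0.113 against WT liver missed the threshold (adjusted p 0.0505). The call was lost without any single array other than KO liver replicate 2 (adjusted p 0.0842 to 0.156), and without that one the adjusted p was 0.0117.

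Col6a1 and Col6a2, which lie in the same filaments, differed most between lines. Col6a1 read 7.35, 7.52 and 7.29 in WT livers, 7.62, 7.36 and 7.84 in KO livers and 8.41, 7.03 and 7.17 in the lines. Col6a2 read 7.0, 7.28 and 7.19 in WT livers, 7.41, 7.28 and 7.57 in KO livers and 7.86, 6.90 and 7.18 in the lines. Line 1 was the highest and line 2 the lowest of all arrays for both, so the mean differences from KO liver, -0.07 (95% interval -1.07 to 0.94) and -0.11, stand for no single line. Col6a3 did not share that order, line 1 being its lowest array.

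The arrays themselves were ranked alike by many collagens. Line 1 gave the lowest of the 3 line values for 39 of the 44 collagens (88.6%, against 47.2% of all genes), and KO liver replicate 2 gave the lowest KO liver value for 36 (81.8%, against 45.9%). The median gap between line 1 and the next line, over those 39, was 0.21. The 5 exceptions for line 1 were Col4a5, Col6a1, Col6a2, Col6a5 and Col8a1. What ranks these arrays alike was not tested. Over the 3 lines, 4 collagens spanned 1 or more (Col12a1, Col4a1, Col4a2 and Col6a1), which is 9.09% of the family against 15% of all genes.

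The genes that process collagen chains were called in the lines less often than all genes. The called share, in either direction, was 6.90% against KO liver (21.4% of all genes) and 20.7% against WT liver (28.7%). Of 29 genes for hydroxylation, glycosylation, folding, trimming and cross-linking, none passed the test in KO against WT liver, where 7 were higher and 1 lower at an unadjusted p under 0.05 (17.3% and 5.17% of all genes). The lines showed 2 lower and none higher against KO liver, and 4 higher and 2 lower against WT liver. Beside this and the lists that follow stand the shares of all genes called, 11.4% higher and 10.1% lower against KO liver and 17.6% higher and 11.1% lower against WT liver. Plod1, a lysyl hydroxylase, read 11.53, 11.55 and 11.44 in WT livers, 12.12, 11.73 and 12.11 in KO livers and 9.21, 10.5 and 10.10 in the lines. It fell by 2.05 against KO liver (adjusted p 0.0137) and by 1.57 against WT liver (adjusted p 0.0184), every line being below every liver. Colgalt2, a collagen galactosyltransferase, also fell in both.

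P3h4, a partner of the lysyl hydroxylases, rose by 2.30 against WT liver (adjusted p 0.0133), together with Plod2, P3h1 and Colgalt1. Its values were 5.93, 6.01 and 5.96 in WT livers, 6.94, 6.49 and 6.85 in KO livers and 7.44, 8.14 and 9.21 in the lines, which puts the KO livers between the other groups with no overlap (KO difference 0.80, adjusted p 0.0995). Serpinh1, the collagen chaperone HSP47, read 8.76, 8.85 and 8.72 in WT livers, 9.63, 8.44 and 10.01 in KO livers and 9.89, 8.02 and 7.67 in the lines. KO livers 1 and 3 were high, as for Col4a1, and line 1 was high, as for Col6a1, and no comparison was called.

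Collagen receptors changed in both directions in the lines. Of 9 measured, 2 rose (Itga2 and Ddr1) and 2 fell (Itga1 and Lair1) against either liver group, where 21.4% (KO liver) and 28.7% (WT liver) of all genes were called in either direction. Itga2, the integrin chain that binds fibrillar collagen in epithelia and platelets, read 6.47 to 7.55 in livers and 11.32, 10.08 and 9.60 in the lines, a rise of 3.31 against KO liver (adjusted p 0.0106). Ddr1, an epithelial collagen receptor tyrosine kinase, read 6.51 to 6.86 in livers and 10, 9.16 and 10.25 in the lines, a rise of 3.23 (adjusted p 0.00177). Itga1, whose integrin prefers type IV collagen, fell by 2.24 (adjusted p 0.0205), from 10.67 to 11.09 in livers to 8.01, 9.62 and 8.35 in the lines. Lair1, an inhibitory receptor of leukocytes, fell by 3.26 (adjusted p 0.000675). The mean of 10 Kupffer cell markers was 11.24 to 11.86 in livers and 6.12 to 6.37 in lines.

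Fibril-associated matrix genes held the largest differences of the 6 lists examined. Of 15, 6 fell (Postn, Dcn, Bgn, Lum, Tnxb and Thbs2) and 1 rose (Fbln2) in the lines against either liver group, where 10.1% (KO liver) and 11.1% (WT liver) of all genes fell and 11.4% and 17.6% rose. Dcn, decorin, read 12.50, 12.89 and 12.16 in WT livers, 12.01, 12.46 and 12.79 in KO livers and 5.52, 6.10 and 6.17 in the lines, and fell by 6.49 against KO liver (adjusted p 0.000152). Bgn, biglycan, fell by 6.41 (adjusted p 0.000444) and Lum, lumican, by 4.00 (adjusted p 0.00046). Fbln2, fibulin-2, read 7.50 to 8.27 in livers and 10.39, 12.42 and 12.80 in the lines, a rise of 3.80 (adjusted p 0.015), with line 1 lowest of the lines as for Col12a1.

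Of the 15 non-collagen basement membrane genes, 4 rose and 4 fell in the lines against KO liver, and 5 rose and 3 fell against WT liver, beside 21.4% and 28.7% of all genes called in either direction. Lama4, the laminin chain of vessel walls, read 9.38 to 10.38 in livers and 5.93, 5.94 and 6.80 in the lines, and fell by 3.66 against KO liver (adjusted p 0.00207). Lama5, the main laminin chain of epithelial basement membrane, read 8.19 to 8.60 in livers and 10.60, 11.27 and 10.98 in the lines, and rose by 2.53 (adjusted p 0.0012). Hspg2, perlecan, fell by 2.38 (adjusted p 0.0424). Nid2, which links laminin to type IV collagen, read 7.53, 7.25 and 7.32 in WT livers, 9.49, 7.97 and 8.65 in KO livers and 6.79, 7.26 and 6.73 in the lines. All KO livers were above all WT livers by 1.33 on average, without passing the test (adjusted p 0.139).

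Among 19 proteases and inhibitors of collagen breakdown, 3 rose in the lines against either liver group (Mmp11, Timp1 and Timp2), and 4 fell against KO liver and 6 against WT liver. Of all genes, 11.4% and 17.6% rose and 10.1% and 11.1% fell in these comparisons, so the share of the list that rose was near the background. Timp1, a metalloproteinase inhibitor, read 6.52 to 7.48 in livers and 10.10, 8.90 and 10.11 in the lines, a rise of 2.67 against KO liver (adjusted p 0.0112). Plau, the urokinase that activates plasminogen, read 9.07, 8.27 and 8.45 in WT livers, 11.47, 10.18 and 11 in KO livers and 7.22, 6.07 and 7.39 in the lines. Its groups did not overlap, and the KO difference of 2.29 ± 0.381 had an adjusted p of 0.0995, while the lines fell by 3.99 against KO liver (adjusted p 0.00482).

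TGF-beta is the best-known inducer of fibrillar collagen. Of 14 genes of that axis, 2 rose and 3 fell in the lines against KO liver, and 5 rose and 4 fell against WT liver, beside 11.4% and 17.6% of all genes that rose and 10.1% and 11.1% that fell. Tgfb2, a ligand, rose by 3.63 (adjusted p 0.00104), from 5.55 to 5.99 in livers to 8.64, 9.71 and 9.35 in the lines, and Tgfb1, another ligand, fell by 2.51 (adjusted p 0.000444), both against KO liver. Tgfbi, a secreted target that binds collagen, read 11.08 to 11.63 in livers and 6.41, 6.58 and 6.28 in the lines, and fell by 5.03 (adjusted p 3.61e-05). Ccn2, a matrix-inducing target, rose by 3.00 against WT liver (adjusted p 0.002). None of the genes in these 6 lists was called in KO against WT liver, as for all genes tested.

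**Figure D4:**
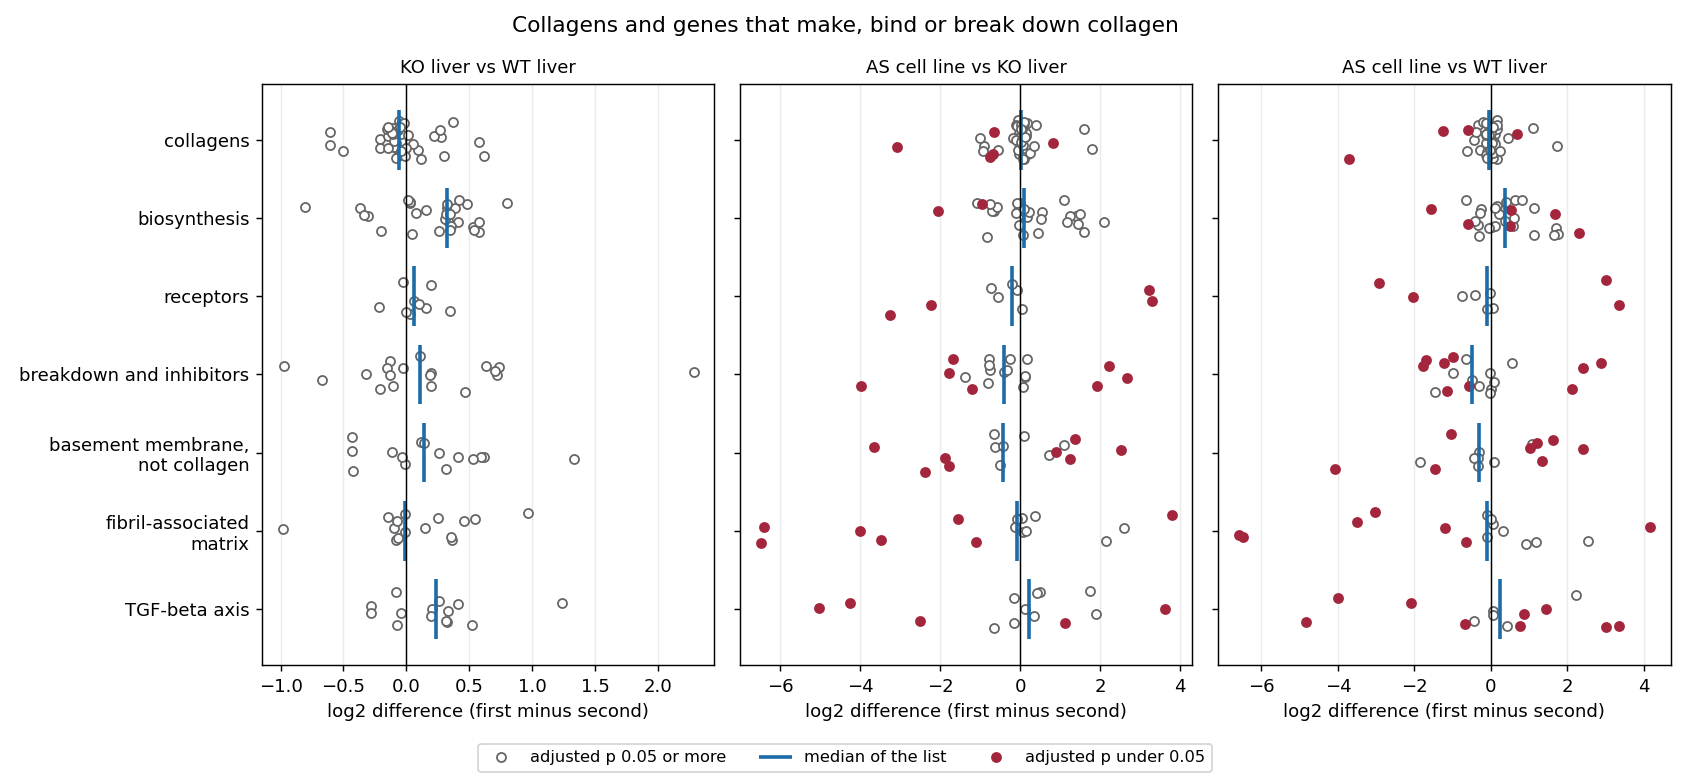
Log2 difference (horizontal axis, first group minus second) of each collagen and of each gene in 6 related lists, in the 3 comparisons; filled points have an adjusted p under 0.05 in limma and vertical bars are list medians. The horizontal scale differs between panels. Most collagens lie near 0, with Col14a1 at -3.09 and -3.70 in the lines, and the largest shifts, -6.49 and -6.59, belong to Dcn in the fibril-associated list.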

How the data were processed

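Per the labels, total RNA was copied to labelled cDNA and hybridised to whole-transcript expression arrays. The deposited table gives log2 expression for 35556 probe sets on 9 arrays, and per the submitters' processing notes the authors made it with RMA and the oligo package (no version given in the sources used here). RMA pulls dim probe sets toward a common floor and compresses differences. Of the probe sets, 21789 had 1 gene symbol in the platform annotation, 1621 had several and 12146 were not in it. Those with 1 symbol were kept, the probe set of highest mean per gene, which gave 19938 genes. The 3 livers per group came from separate animals and the 3 lines were separately derived. Groups were compared pairwise with limma 3.58.1 in R 4.3.3 (lmFit and eBayes, 2-sided, no intensity filter), only the 6 arrays compared entering each fit, and p-values were adjusted by Benjamini-Hochberg over the 19938 genes, calls being made under 0.05. The fit was tested on simulated data with independent noise in each gene. Not all genes given a shift were called there, so a gene not called may still differ. The number of arrays limits the precision.

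Every collagen was counted. Those described singly were the main fibrillar, type IV, type VI and multiplexin chains, the up to 5 collagens of largest difference in each direction among those whose groups did not overlap, and members of largest difference in each related list. The members and lists were chosen with earlier results of these data known. Lists were described by counts with no test of their own. The alternatives tried were the replicate number as a block, array weights, a joint fit of all 9 arrays, a robust fit with an intensity trend, dim genes left out, 75th percentile scaling, averaging a gene's probe sets, and leaving out each array in turn. Sequence windows were matched to collagens by symbol.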

Additional observations from a re-analysis of the deposited data

How the results depend on the processing

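No named collagen changed sign while called, and of 827 recomputed values of named results 733 were classed as unchanged. A call of the main fit was lost in 33, and a call that it lacked was gained in 31. For a gene, unchanged meant the same direction and side of the threshold, which includes genes called in neither fit. For a count it meant a change within a fixed ratio, and for a median a shift below the spread between arrays. Col14a1 was called lower in the lines under all 13 alternatives in both comparisons (adjusted p 0.000181 to 0.00681 against KO liver and 6.99e-05 to 0.00583 against WT liver), as was Col13a1 against WT liver (0.000256 to 0.0108). In KO against WT liver, array weights called 4 collagens higher (Col1a1, Col4a1, Col4a2 and Col6a3) and 2 lower (Col13a1 and Col18a1), and leaving out an array gave 0 to 2 higher and 0 to 1 lower. The median difference was -0.22 with 75th percentile scaling and -0.09 to -0.02 with an array left out. Notch1 was called under array weights (-3.05, adjusted p 0.00945) and without KO liver replicate 2 (-3.29, adjusted p 0.018). Its difference was -3.33 to -2.84 with an array left out. In the lines against KO liver, collagens called higher numbered 2 with all 9 arrays in one fit, 0 with dim genes left out (Col4a5 was not kept), 3 with array weights and 1 to 2 with an array left out. Those called lower numbered 6 with all 9 arrays in one fit (Col1a1 and Col3a1 beside the 4 reported), 2 with 75th percentile scaling and 1 to 3 with an array left out, and the median was -0.01 to 0.09. Against WT liver, collagens called higher numbered 0 with the replicate block, 2 with all 9 arrays, 0 with dim genes left out, 0 with 75th percentile scaling, 2 with array weights and 0 to 3 with an array left out. Those called lower numbered 2 to 4 with an array left out, and the median was -0.17 with 75th percentile scaling and -0.09 to -0.0007 with an array left out. Under that scaling the median over all genes was -0.16 (KO against WT liver), 0.08 (lines against KO liver) and -0.11 (lines against WT liver). The replicate numbers were not taken to pair arrays, because not every same-numbered pair deviated together: correlations over genes for replicates 1, 2 and 3 were 0.312, 0.43 and -0.393 between KO and WT livers, 0.238, 0.339 and 0.074 between lines and KO livers, and 0.044, 0.17 and -0.157 between lines and WT livers. The cause of the shifts between alternatives was not tested.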
